A study of Mus musculus with 8 samples.

Results

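Brown adipocyte identity rests on a small set of transcription factors, and 10 of them were followed here in the brown adipose tissue (BAT) of mice whose hearts were under pressure overload. They were the peroxisome proliferator-activated receptors Pparg, Ppara and Ppard, the CCAAT/enhancer-binding proteins Cebpa and Cebpb, the brown fat regulators Prdm16, Ebf2 and Zfp516, and the estrogen-related receptors Esrra and Esrrg. Members were all array probes whose RefSeq accession belongs to one of these genes. This gave 13 of the 55681 probes on the array, for 10 of the 21154 genes that could be named, and all 13 were among the 33359 probes bright enough to be tested.

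Male C57BL/6NCrSlc mice underwent an operation when 11 weeks old, either with a sham procedure (Sham) or with thoracic aortic constriction (TAC), which narrows the aorta and loads the left ventricle, and were kept at room temperature on normal chow. BAT was taken at 13 weeks of age. For the interval since the operation the labels name both 2 weeks and 4 weeks, and the ages match the shorter one. There were 4 samples in each group, each on 1 one-colour Agilent array of total RNA. The comparison of TAC with Sham asks how pressure overload of the heart relates to gene expression in BAT.

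Levels are log2 intensities relative to the 75th percentile of the same array, so that 0 is the level of that percentile. Scanner output was used for 7 arrays, namely replicates 2 to 4 of Sham and all 4 replicates of TAC. Sham replicate 1 entered only through the table of deposited values, which covers all 8 arrays on a slightly different scale, so its values are given beside those of the same table. The 7 arrays shared 1 slide and 1 scan, with Sham in slide row 1 and TAC in slide row 2, so that slide row and surgery cannot be told apart. Between 54.5% and 64.3% of the spots of an array were well above background.

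Within the brown fat cell, PPARγ acts as a DNA-binding receptor at the top of the adipocyte programme, together with C/EBPα and C/EBPβ. PRDM16, EBF2 and ZFP516 add the brown-selective part of the programme, which includes the uncoupling protein Ucp1. PPARα and the ERRs act with the coactivators PGC-1α and PGC-1β on genes of fatty acid oxidation and mitochondrial respiration.

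Markers of brown adipocytes, checked against the tissue label, were present. All 10 genes of the brown adipocyte list were tested, and none was at background on all arrays. The probe of the lipid droplet protein gene Cidea was the brightest of the list. It was at 10.36, 10.67 and 10.42 in Sham replicates 2 to 4. In TAC replicates 1 to 4 it was at 10.08, 10.54, 10.38 and 10.49. The groups overlapped for Cidea. The summed level of the list, in multiples of the 75th percentile, was 4810, 5850 and 5090 in Sham and 3870, 5160, 4870 and 4960 in TAC. The mean log2 difference of the list from Sham replicates 2 to 4 was -0.18, 0.2 and -0.02 on these arrays. It was -1.31, -0.23, -0.14 and -0.6 on TAC replicates 1 to 4 and, in the deposited table, -0.26 on Sham replicate 1. Sham replicates 1 and 2 thus lay among the TAC arrays. Of the 10 markers 9 were lower in TAC, 0 passed the test, and the median log2 fold change was -0.25, or -0.19 without TAC replicate 1 and -0.24 on the 8 arrays. Ucp1 at -0.61, Otop1 at -0.90 and Elovl3 at -2.48 were below Sham without overlap on the 7 and on the 8 arrays, as were 10.4% and 6.3% of all probes, and Elovl3 was at -1.47 without TAC replicate 1. Otop1 and Elovl3 are named after their values were seen.

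TAC replicate 1 stood apart. The leading principal component of the 7 arrays held 39.3% of the variance, and this array was at 89.6 on it, while the other 6 arrays were between -32.6 and 3.6. In the 8-array table Sham replicate 1, at -3, lay among TAC replicates 2 to 4, at -4.8, -7.4 and 4.5. Log2 fold changes of the member genes and medians of the gene lists are therefore also given without TAC replicate 1 and for the 8 arrays of deposited values.

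Other cell types differed between the arrays. All 18 skeletal muscle markers were tested, and their summed level, in multiples of the 75th percentile, was 69.5, 232 and 121 in Sham replicates 2 to 4 and 361, 291, 84.8 and 368 in TAC replicates 1 to 4. The brightest probe was that of the fast myosin gene Myh4, and no muscle marker was at background on all arrays. The 16 macrophage markers summed to 56.3, 56.7 and 61.3 in Sham and to 122, 56.2, 47.7 and 53.1 in TAC. Their brightest probe was that of the integrin gene Itgam, and none was at background on all arrays. Muscle markers thus varied within both groups. As a mean log2 difference from Sham replicates 2 to 4 they were at -0.8, 0.77 and 0.02 on these arrays, at 1.44, 1.08, -0.5 and 1.37 on TAC replicates 1 to 4 and, in the deposited table, at 0.85 on Sham replicate 1. Macrophage markers were high on TAC replicate 1 alone. Fewer brown adipocytes and less RNA per brown adipocyte cannot be told apart in whole tissue, and the part of these markers in the results that follow was not tested.

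**Figure D1:**
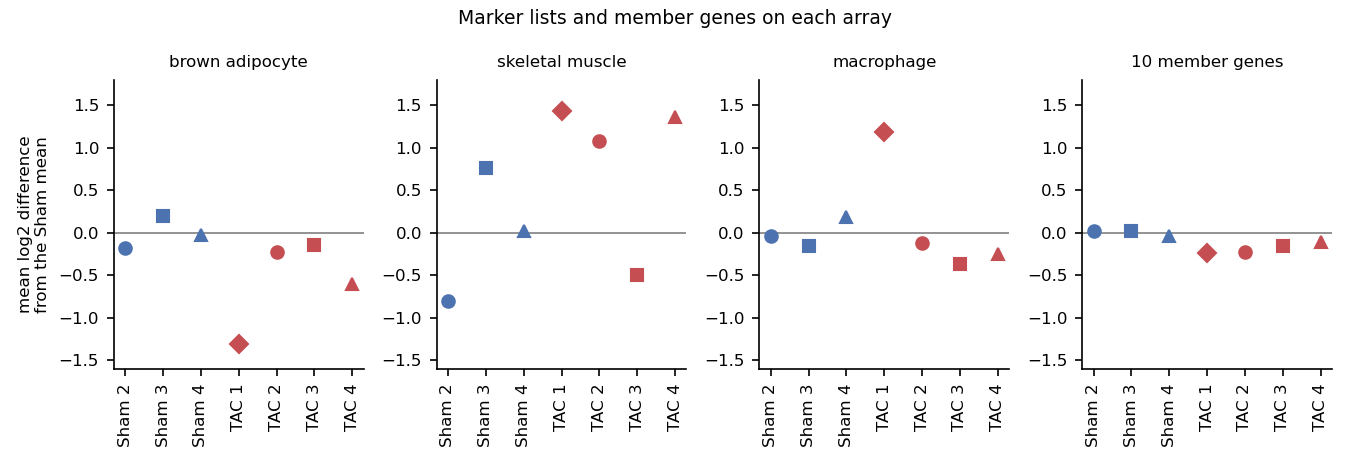
Mean log2 difference of each marker list, and of the 10 member genes, from the mean of the Sham arrays (vertical axis) on each of the 7 arrays (horizontal axis, with Sham in blue, TAC in red, and symbols that stand for replicate numbers). On TAC replicate 1 the macrophage markers are at 1.19 and the brown adipocyte markers at -1.31. In the latter mean Elovl3, at -3.78 against 1.57 to 2.06 in Sham, and Dio2, at 0.64 against 2.37 to 3.74, lie furthest below Sham. The member genes are at 0.02, 0.02 and -0.04 in Sham replicates 2 to 4. In TAC replicates 1 to 4 they are at -0.24, -0.23, -0.15 and -0.11, a mean that includes Zfp516, which was near background.

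No member gene passed the test. Of the 33359 probes, 0 (0.0%) had a limma adjusted p under 0.05 between TAC and Sham. Without adjustment, the p of 1462 probes with higher values in TAC (4.38%) and of 2813 with lower values (8.43%) was under 0.05. Among the 13 member probes 1 was higher, of Esrrg, and 1 was lower, of Zfp516, which was near background. Without Sham replicate 3 the counts over all probes were 891 higher and 1601 lower. All 4 TAC arrays lay above all 3 Sham arrays for 1865 probes (5.59%) and below them for 3485 (10.4%), against 1 and 1 of the 13 member probes. Over the 8 arrays of deposited values, 1176 probes (3.53%) were higher and 2100 (6.3%) lower without overlap, against 1 and 0 of the member probes. On these sets of arrays, the shares among the members are near those of the whole array. The member counts depended on single Sham arrays. There were 3 higher and 4 lower without Sham replicate 2, and 1 higher and 3 lower without Sham replicate 4. Shares over all probes were not computed for those cases, so the likeness was not tested there. Of the 10 member genes, 2 were higher and 8 lower, against 55.8% lower among all probes. Their median was -0.18, or -0.15 without TAC replicate 1 and -0.17 on the 8 arrays, and that of all probes tested was -0.03.

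Pparg encodes the receptor without which fat cells do not form. Its probe A_51_P106799 was at 6.6, 6.35 and 6.33 in Sham replicates 2 to 4 and at 6.57, 6.45, 6.46 and 6.62 in TAC replicates 1 to 4. Sham replicate 2 and TAC replicates 1 and 4 were high, and the groups overlapped. The probe was printed on 10 spots of each array, whose SD within an array was 0.02 to 0.06, below the SD of 0.15 between the Sham arrays. The log2 fold change was 0.10 ± 0.10 (SE, limma adjusted p = 0.685), with a 95% confidence interval from -0.14 to 0.34. It was 0.0877 without TAC replicate 1, 0.0642 on the 8 arrays, 0.19, 0.064 and 0.0548 without Sham replicates 2, 3 and 4, and 0.167 with quantile normalization.

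The start regions of Pparg are shown because this receptor and its relatives bind copies of the letters AGGTCA. RefSeq windows of 300 bases, from 250 before to 50 after a gene start, were used for 8 of the 10 members, 13 windows in all, on build GRCm38.p6. None of the 13 held, on either strand, the ERR element TCAAGGTCA, a direct repeat of AGGTCA with 1 base between the copies, the C/EBP palindrome TTGCGCAA or the cAMP response element TGACGTCA. Of all 32851 windows searched, which left out 1 chromosome, 0.423%, 0.0396%, 0.183% and 1.79% held these in the same order. A single core AGGTCA, searched after the longer motifs gave no match and contained in the first and the second of them, was in 16.3% of all windows and in 2 of the 13 member windows, a similar share, so that it does not set these genes apart. Both windows, on the plus strand of chromosome 6, are at Pparg starts, of which there are 3, and are shown with the core in capitals. A match describes letters and not a bound site.
Pparg, chr6:115360894-115361193: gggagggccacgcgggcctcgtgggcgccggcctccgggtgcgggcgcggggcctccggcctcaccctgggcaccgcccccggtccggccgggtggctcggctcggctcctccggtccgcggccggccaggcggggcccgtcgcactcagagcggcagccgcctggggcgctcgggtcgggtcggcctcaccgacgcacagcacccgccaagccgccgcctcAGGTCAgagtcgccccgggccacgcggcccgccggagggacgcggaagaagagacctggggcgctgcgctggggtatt
Pparg, chr6:115362099-115362398: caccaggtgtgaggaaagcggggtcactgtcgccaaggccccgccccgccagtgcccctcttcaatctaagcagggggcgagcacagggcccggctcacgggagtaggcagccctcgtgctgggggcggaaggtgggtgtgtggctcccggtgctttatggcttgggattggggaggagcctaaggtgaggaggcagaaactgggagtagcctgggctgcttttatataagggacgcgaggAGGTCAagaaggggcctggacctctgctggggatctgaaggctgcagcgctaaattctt

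Ppara, the receptor that drives fatty acid oxidation genes, was read by 3 probes of the same accession, of which A_55_P2071601 departed from the others. Probe A_55_P2055854 was at 6.24, 6.62 and 6.49 in Sham and at 6.3, 6.29, 6.41 and 6.21 in TAC. Sham replicates 3 and 4 were the highest arrays, and Sham replicate 2 lay among the TAC arrays. For this probe the log2 fold change was -0.15 ± 0.11 (SE, limma adjusted p = 0.592), or -0.149 without TAC replicate 1, -0.107 on the 8 arrays, -0.255 and -0.0647 without Sham replicates 2 and 3, and -0.075 with quantile normalization. The mean of the 3 probes gave -0.0469. Probe A_55_P2071596 was at 4.11, 4.64 and 4.48 in Sham and at 4.28, 4.29, 4.39 and 4.21 in TAC, a log2 fold change of -0.12 (limma adjusted p = 0.735). Probe A_55_P2071601 was at 4.1, 4.58 and 4.45 in Sham and at 4.48, 4.47, 4.72 and 4.33 in TAC, a log2 fold change of 0.13 (limma adjusted p = 0.733). Both sets of groups overlapped. The sign of the last probe was opposite to that of the others, but it depended on 1 array, since the value was -0.0137 without Sham replicate 2, and that of A_55_P2071596 was -0.0013 without Sham replicate 3.

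The difference between probes within one array removes what they share, and it was looked at after the values were seen. A_55_P2071596 minus A_55_P2071601 was 0.01, 0.06 and 0.03 in Sham replicates 2 to 4 and -0.2, -0.18, -0.32 and -0.12 in TAC replicates 1 to 4. All TAC arrays were below all Sham arrays, and in the 8-array table Sham replicate 1, at 0.13, also lay above the TAC arrays. A_55_P2055854 minus A_55_P2071601 was 2.14, 2.04 and 2.04 in Sham and 1.82, 1.82, 1.7 and 1.87 in TAC, again without overlap. A_55_P2055854 minus A_55_P2071596, in contrast, was 2.13, 1.98 and 2.01 in Sham and 2.02, 2.0, 2.02 and 1.99 in TAC, with overlap. Among all 5747 pairs of tested probes that shared a gene, 684 (11.9%) had differences without overlap on the 7 arrays and 445 (7.74%) on the 8 arrays, so such pairs were common. No test was made of these differences, and which part of the transcript each probe reads was not analysed here.

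**Figure D2:**
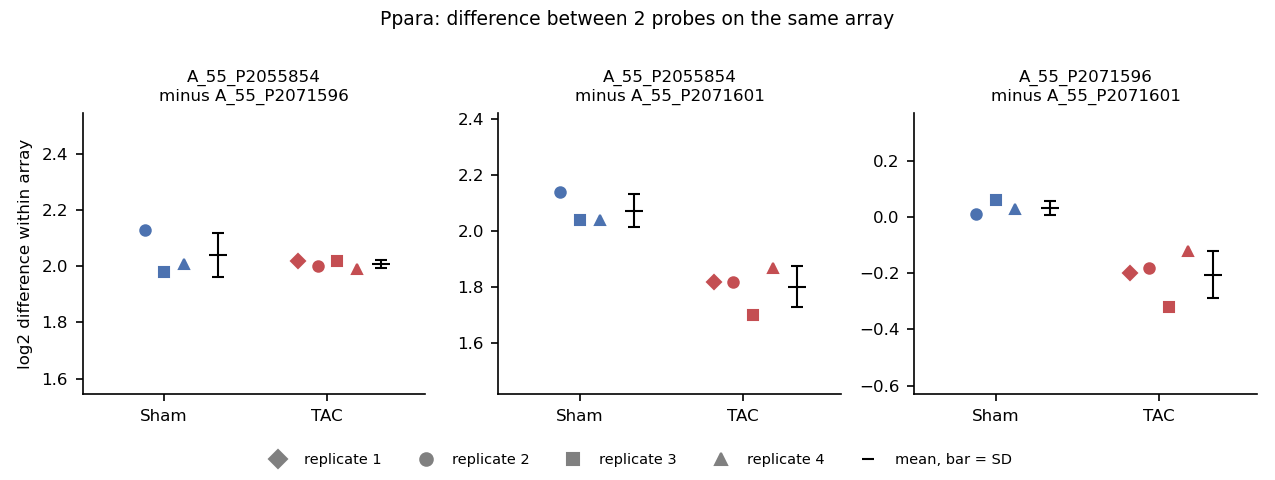
Difference between the log2 values of 2 Ppara probes on the same array (vertical axis, log2) in Sham (blue) and TAC (red), for the 3 pairs of probes. Points are arrays, and the black bar is the mean with its SD. The pairs with A_55_P2071601 have means of 2.08 against 1.8 and of 0.04 against -0.21, and the remaining pair has 2.04 against 2.01.

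Ppard, the most widely expressed PPAR, was at 1.93, 1.85 and 2.11 in Sham and at 1.68, 1.89, 1.88 and 1.86 in TAC on probe A_66_P124715. TAC replicate 1 was the lowest of the 7 arrays, and the groups overlapped. In the 8-array table Sham replicate 1 was the lowest, at 1.74, against 1.86 for TAC replicate 1. TAC differed from Sham by a log2 fold change of -0.13 ± 0.10 (SE, limma adjusted p = 0.592), or -0.0839 without TAC replicate 1, -0.0622 without Sham replicate 4, -0.0456 on the 8 arrays and 0.00 on the 8 arrays less TAC replicate 1.

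Cebpa, which keeps the mature fat cell programme on, was at 5.21, 5.05 and 4.9 in Sham and at 5.11, 4.92, 5.04 and 5.02 in TAC on probe A_52_P168567. The TAC values lay within the Sham range. Its log2 fold change was -0.04 ± 0.10 (SE, limma adjusted p = 0.901), with a 95% confidence interval from -0.27 to 0.20, and its sign turned to 0.03 with quantile normalization and to 0.04 without Sham replicate 2. It was -0.0639 without TAC replicate 1, -0.000772 without TAC replicate 2, -0.112 without Sham replicate 4 and -0.102 on the 8 arrays.

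Cebpb, an early inducer of adipocyte genes that also works with PRDM16, varied most among the members whose signal was well above background on all arrays. Its probe A_55_P2165869 was at 5.76, 6.26 and 6.29 in Sham and at 5.3, 5.89, 6.14 and 5.6 in TAC. TAC replicate 1 was the lowest array, Sham replicate 2 lay among the TAC arrays, and the groups overlapped. For Cebpb the log2 fold change was -0.37 ± 0.23 (SE, limma adjusted p = 0.519), or -0.226 without TAC replicate 1, -0.297 on the 8 arrays and -0.157 on the 8 arrays less TAC replicate 1. The 3 genes whose values over the 7 arrays were nearest to those of Cebpb, after centring each gene on its mean, were the folliculin gene Flcn, the hexokinase gene Hk2 and the peroxisomal protease gene Tysnd1, with root mean square differences of 0.0504, 0.0654 and 0.0784 on the log2 scale. Flcn, for example, was at 4.2, 4.59 and 4.67 in Sham and at 3.69, 4.24, 4.51 and 4.09 in TAC.

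Prdm16, the regulator that sets brown fat apart from muscle and white fat, was at 0.36, -0.04 and -0.22 in Sham and at -0.34, -0.39, 0.25 and -0.23 in TAC on probe A_55_P1963547. Sham replicate 2 and TAC replicate 3 were high, and the groups overlapped. Prdm16 had a log2 fold change of -0.21 ± 0.20 (SE, limma adjusted p = 0.677), or -0.157 without TAC replicate 1 and -0.314 on the 8 arrays. It was -0.046 and -0.338 without Sham replicates 2 and 4, -0.138 and -0.353 without TAC replicates 2 and 3, and -0.129 with array weights.

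Ebf2, which opens brown-selective sites for PPARγ, was at 3.08, 2.77 and 2.61 in Sham and at 2.48, 2.72, 2.51 and 2.67 in TAC on probe A_51_P386562. Sham replicates 2 and 3 were the highest arrays, and Sham replicate 4 lay among the TAC arrays. Ebf2 had a log2 fold change of -0.23 ± 0.13 (SE, limma adjusted p = 0.498), or -0.189 without TAC replicate 1, -0.307 on the 8 arrays, -0.1 without Sham replicate 2 and -0.136 with array weights.

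Zfp516, a cold-induced zinc finger protein that binds the Ucp1 promoter, was near background. Probe A_51_P515777 was well above background on 3 of 3 Sham arrays and on 2 of 4 TAC arrays. It was at -4.41, -4.17 and -4.31 in Sham and at -4.73, -5.59, -5.65 and -4.51 in TAC. All TAC arrays were below all Sham arrays on the 7 arrays, with TAC replicates 2 and 3 the lowest. In the 8-array table the groups overlapped, with Sham replicate 1 at -4.54 beside TAC replicates 1 and 4 at -4.54 and -4.32. The log2 fold change was -0.82 ± 0.30 (SE, limma adjusted p = 0.35), or -0.949 without TAC replicate 1 and -0.703 on the 8 arrays, and after normexp background correction it was -0.125. The nearest genes in pattern were Cstdc5, Tceanc and Pqlc3, with root mean square differences of 0.189, 0.212 and 0.227, of which Cstdc5 was well above background on 3 and Tceanc on 5 of the 7 arrays.

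**Figure D3:**
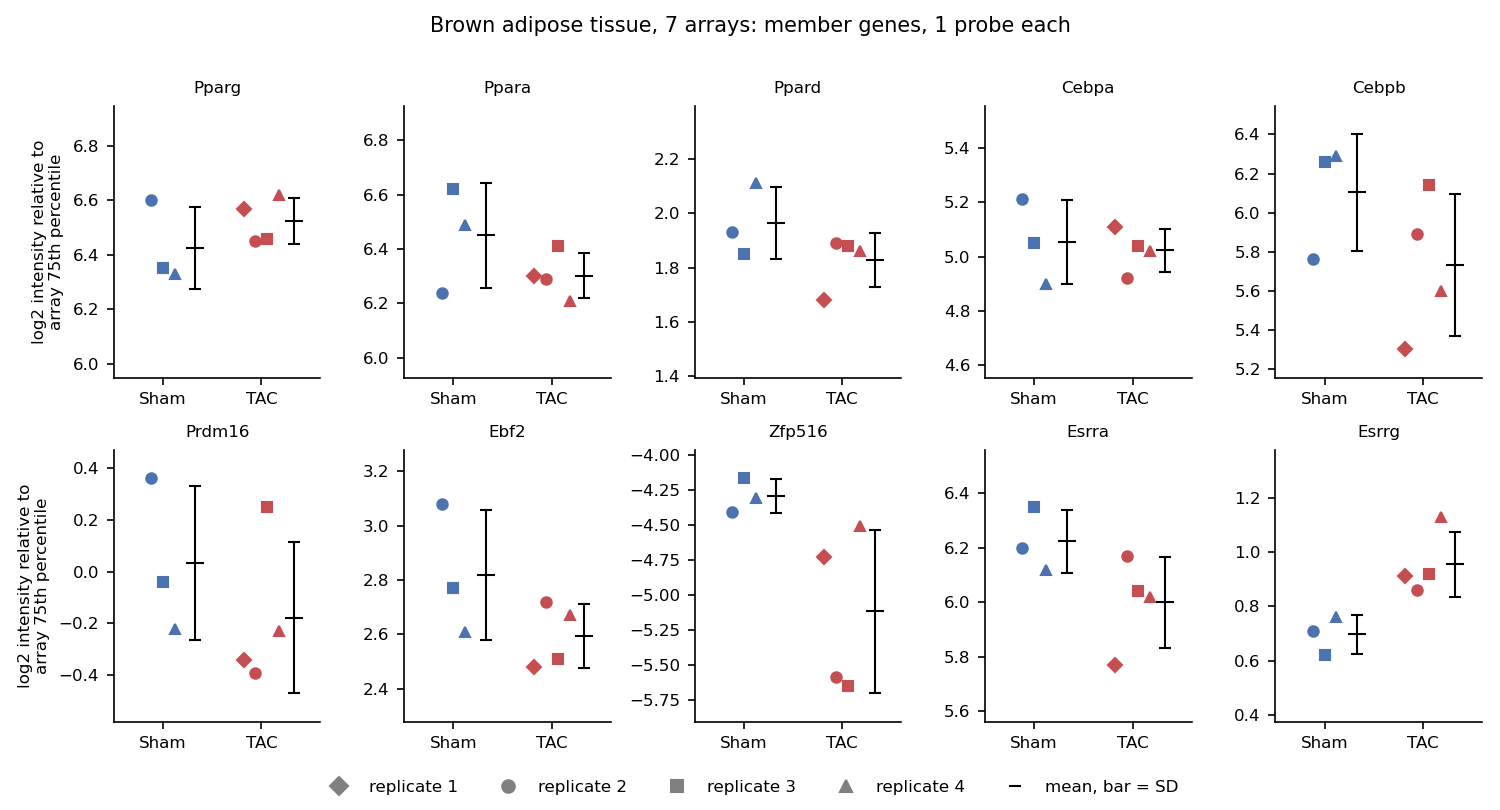
Log2 intensity relative to the 75th percentile of the array (vertical axis) of the 10 member genes in Sham (blue) and TAC (red); each point is 1 array, symbols stand for replicate numbers, and the black bar is the mean with its SD. Groups overlap for all genes but Zfp516, which is near background, and Esrrg, at 0.62 to 0.76 in Sham and 0.86 to 1.13 in TAC.

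Esrra, the ERR that drives respiratory chain genes with PGC-1α, was at 6.2, 6.35 and 6.12 in Sham and at 5.77, 6.17, 6.04 and 6.02 in TAC on probe A_55_P1954306. TAC replicate 1 was the lowest array, and TAC replicate 2 lay above Sham replicate 4. Esrra had a log2 fold change of -0.23 ± 0.12 (SE, limma adjusted p = 0.461), or -0.152 without TAC replicate 1 and -0.237 on the 8 arrays.

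Esrrg, the ERR of highly oxidative tissues, had values in the other direction on both of its probes. Probe A_65_P19089 was at 0.71, 0.62 and 0.76 in Sham and at 0.91, 0.86, 0.92 and 1.13 in TAC. All TAC arrays were above all Sham arrays, and in the 8-array table Sham replicate 1, at 0.9, lay within the other Sham arrays, which were at 0.81 to 0.95, while TAC ran from 1.04 to 1.31. The log2 fold change was 0.26 ± 0.10 (SE, limma adjusted p = 0.349), with a 95% confidence interval from 0.04 to 0.49, or 0.277 without TAC replicate 1 and 0.244 on the 8 arrays. Probe A_55_P2006499 was at 0.75, 0.45 and 0.53 in Sham and at 0.71, 0.82, 0.7 and 0.91 in TAC, and Sham replicate 2 overlapped with TAC. In the 8-array table Sham replicates 1 and 2, at 0.94 and 0.95, lay among the TAC arrays, at 0.88 to 1.09. The log2 fold change of this probe was 0.21 ± 0.11 (SE, limma adjusted p = 0.453), or 0.235 without TAC replicate 1 and 0.154 on the 8 arrays. Skeletal muscle also expresses Esrrg. The summed muscle markers, given above for each array, were highest on TAC replicate 4, at 368, which also had the highest Esrrg value. They were 84.8 on TAC replicate 3, where Esrrg on A_65_P19089 was at 0.92. In Sham replicates 2 to 4 they were 69.5, 232 and 121, beside 0.71, 0.62 and 0.76 on that probe. The part of the muscle markers in the Esrrg values was not tested.

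**Figure D4:**
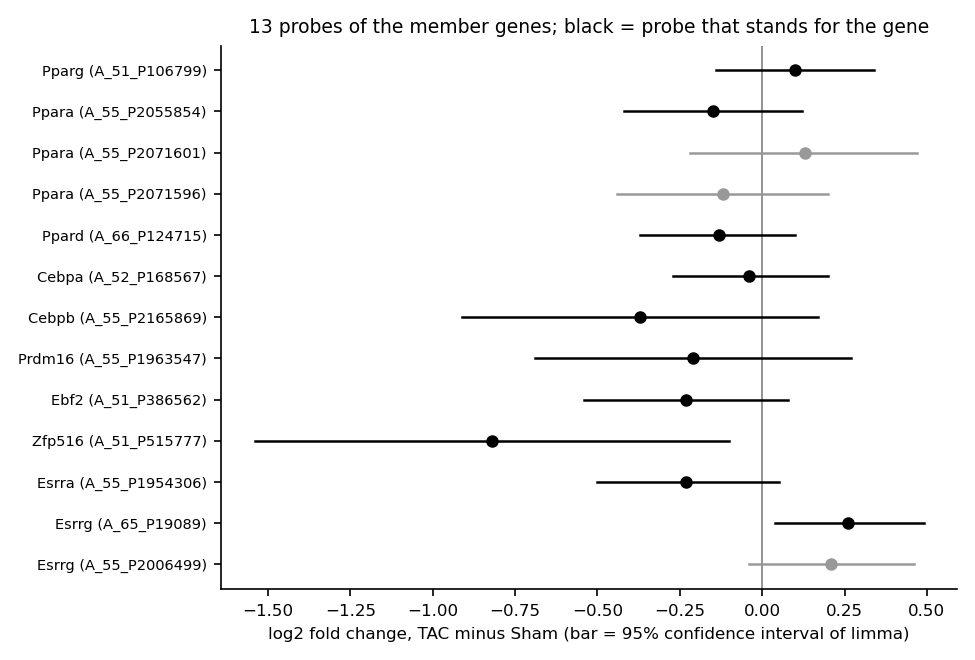
Log2 fold change of TAC minus Sham (horizontal axis) for the 13 member probes, with the 95% confidence interval of the limma fit as a bar; black marks the probe that stands for the gene and grey the other probes. The interval of the brighter Esrrg probe runs from 0.04 to 0.49. That of Zfp516, near background and well above it on 2 of 4 TAC arrays, runs from -1.54 to -0.10, and its log2 fold change was -0.125 after normexp. No adjusted p was under 0.05.

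Partners and relatives of these factors come next. Of 13 nuclear receptor partners and relatives tested, 5 were higher and 8 (61.5%) lower in TAC, against 55.8% of all probes, 0 passed the test, and the median log2 fold change was -0.07, against -0.03 over all 33359 probes. That median was -0.05 without TAC replicate 1, -0.154 without Sham replicate 4, -0.0217 without Sham replicate 2, -0.0338 without TAC replicate 4 and -0.15 on the 8 arrays, and its sign turned to 0.01 with quantile normalization. The retinoid X receptors, obligate partners of the PPARs, had log2 fold changes of 0.08 for Rxra, 0.06 for Rxrb and 0.01 for Rxrg, or 0.20, 0.11 and 0.05 without TAC replicate 1 and 0.04, 0.02 and -0.03 on the 8 arrays. The thyroid hormone receptor gene Thrb was at 1.35, 1.34 and 1.17 in Sham and at 0.8, 1.16, 1.07 and 1.12 in TAC. All TAC arrays were below Sham for Thrb, with a log2 fold change of -0.25 (limma adjusted p = 0.413). Nr2f2 and the liver X receptor gene Nr1h2 both had -0.17, the latter -0.09 without TAC replicate 1.

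Among 22 coactivators and corepressors, 14 were higher and 8 (36.4%) lower, and 0 passed the test. The median was 0.06, or 0.10 without either TAC replicate 1 or Sham replicate 4 and 0.08 on the 8 arrays. It was 0.117 with quantile normalization and 0.0319 with median centring. Ppargc1a, which encodes PGC-1α, was at 2.28, 3.55 and 3.3 in Sham and at 2.23, 3.24, 3.71 and 2.96 in TAC. Its arrays spread over more than 1 log2 unit in both groups, which overlapped. The log2 fold change of Ppargc1a was -0.01 ± 0.42 (SE, limma adjusted p = 0.995), and its sign turned to 0.26 without TAC replicate 1, 0.16 on the 8 arrays and 0.43 on the 8 arrays less TAC replicate 1. That of Ppargc1b was -0.03 ± 0.15. The muscle-enriched PGC-1 and ERR cofactor gene Perm1 had 0.50 ± 0.21 with overlapping groups, and the corepressor gene Ncor1 had 0.19 ± 0.10, also with overlap.

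Of 32 other adipocyte transcription factors tested, 11 were higher and 21 (65.6%) lower, 0 passed the test, and the median was -0.12, or -0.08 without TAC replicate 1 and -0.10 on the 8 arrays. Cebpg, a dimer partner of other C/EBPs, was at 1.74, 1.91 and 1.91 in Sham and at 1.5, 1.64, 1.65 and 1.64 in TAC. All TAC arrays lay below Sham, also in the 8-array table, with a log2 fold change of -0.25 ± 0.09 (SE, limma adjusted p = 0.336). Klf11 had -0.36 and the preadipocyte factor gene Zfp423 had -0.28, both with overlap.

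Of 31 targets of the PPARs tested, 8 were higher and 23 (74.2%) lower, against 55.8% lower among all probes, 0 passed the test, and the median was -0.15, or -0.02 without TAC replicate 1, -0.10 on the 8 arrays and -0.03 with quantile normalization. Angptl4, a secreted inhibitor of lipoprotein lipase, was at 7.29, 7.77 and 7.69 in Sham and at 8.39, 7.88, 8.3 and 8.46 in TAC. All TAC arrays were above Sham, with a log2 fold change of 0.67 ± 0.18 (SE, limma adjusted p = 0.255). The fatty acid carrier gene Fabp3 had 0.31 and the adiponectin receptor gene Adipor2 -0.39, the latter without overlap. Fabp4 had -0.10, Adipoq 0.18, Cpt1b -0.18 and Pdk4 0.21, all with overlap, and without TAC replicate 1 these were -0.02, 0.25, -0.08 and 0.33.

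Of the 23 brown-selective genes regulated with PRDM16, EBF2 and ZFP516, 6 were higher and 17 (73.9%) lower, against 55.8% among all probes, 0 passed the test, and the median was -0.11, or -0.08 without TAC replicate 1, -0.206 without Sham replicate 2, -0.169 without TAC replicate 2, -0.10 on the 8 arrays and -0.01 with quantile normalization. Ucp1, the proton channel of brown fat, was at 9.4, 9.7 and 9.53 in Sham and at 8.37, 9.22, 9.17 and 8.97 in TAC. All TAC arrays lay below Sham, with TAC replicate 1 the lowest, and the log2 fold change was -0.61 ± 0.21 (SE, limma adjusted p = 0.336), or -0.42 without that array. Dio2, the thyroid hormone-activating enzyme, ran from 2.37 to 3.74 in Sham and from 0.64 to 3.79 in TAC, a log2 fold change of -1.10 ± 0.76 (SE, limma adjusted p = 0.559), or -0.60 without TAC replicate 1. The acyl-CoA thioesterase gene Acot11 had -1.20 ± 0.29 and Letmd1 -0.42 ± 0.14, both below Sham on the 7 arrays and overlapping in the 8-array table. Lrg1 was higher without overlap, with 0.32 ± 0.08 (SE, limma adjusted p = 0.228), and Cidea had -0.11, or -0.02 without TAC replicate 1. Elovl3 and Otop1, given above among the brown adipocyte markers, are on this list too, and Elovl3 had its lowest value.

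The ERR targets, mostly genes of the citric acid cycle and the respiratory chain, leaned to lower values. Of 36 tested, 4 were higher and 32 (88.9%) lower, against 55.8% lower among all probes, 0 passed the test, and the median was -0.17, or -0.11 without TAC replicate 1, -0.13 on the 8 arrays and -0.06 with quantile normalization. The phosphate carrier gene Slc25a3 was at 4.82, 5.12 and 5.1 in Sham and at 4.14, 4.59, 4.48 and 4.46 in TAC. All TAC arrays lay below Sham, also in the 8-array table, with a log2 fold change of -0.60 ± 0.14 (SE, limma adjusted p = 0.205). The succinate dehydrogenase gene Sdhd had -0.27 and the cytochrome c gene Cycs -0.29, both without overlap on the 7 arrays. In the 8-array table the groups overlapped for Cycs but not for Sdhd. In all, 11 of the 36 genes were below Sham without overlap on the 7 arrays and 6 on the 8 arrays, beside 10.4% and 6.3% of all probes. On either set 1 of the 36 was above Sham without overlap, beside 5.59% and 3.53% of all probes. The trait was not particular to ERR targets. Of the 23 brown-selective genes, 7 and 3 were below Sham without overlap, and 2 and 2 above it. Many ERR targets are also abundant in brown adipocytes themselves, whose 10 markers had a median of -0.25. The part of brown adipocyte content in the ERR target values was not tested.

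White-selective genes showed no common direction. Of 9 tested out of 13, 5 were higher and 4 lower, 0 passed the test, and the median was 0.07, or 0.08 without TAC replicate 1. It was 0.0337 and 0.00718 without Sham replicates 2 and 3, 0.188 without Sham replicate 4 or TAC replicate 2 and 0.158 without TAC replicate 4, and on the 8 arrays its sign turned to -0.09. Hoxc8, well above background on 2 Sham and 1 TAC arrays, had -1.0 ± 0.52, Igfbp3 0.59 ± 0.32 and Agt 0.30 ± 0.20, all with overlap, and without TAC replicate 1 these were -0.57, 0.32 and 0.16.

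**Figure D5:**
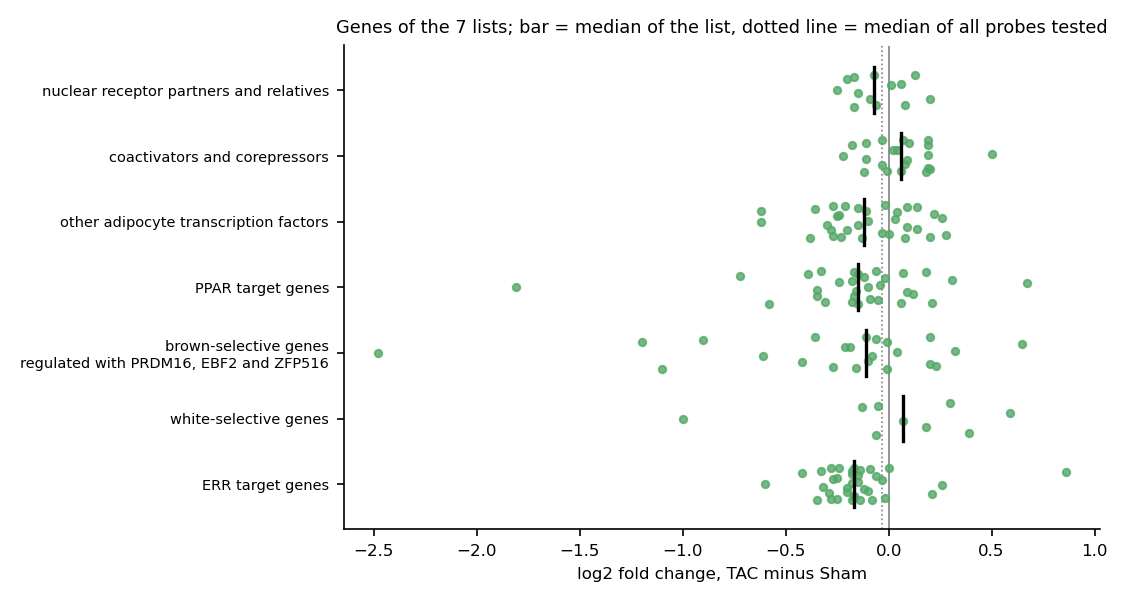
Log2 fold change of TAC minus Sham (horizontal axis) for each tested gene of the 7 gene lists, with 1 point a gene; the black bar is the median of the list and the dotted line the median of all probes tested, -0.03. The ERR targets have a median of -0.17 and the coactivators and corepressors 0.06.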

How the data were processed

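Per the labels, total RNA of BAT was labelled with Cy3 and hybridized to one-colour Agilent arrays, and the submitters' processing notes name Agilent Feature Extraction 10.7.1.1. The deposited scanner values are background-corrected spot intensities, and the authors' value table holds intensities scaled to each array's 75th percentile, with medians of 0.094, 0.094, 0.092 and 0.095 in Sham replicates 1 to 4 and 0.096, 0.098, 0.093 and 0.091 in TAC replicates 1 to 4. Of probes over 100 units, at least 99.8% differed by less than 1% from the scanner values times 1 constant per array. The log2 intensity minus the 75th percentile of the array was used, without outlier spots, spots of a probe averaged. Of 55681 probes, 28026 (50.3%) were named through RefSeq accessions. Probes well above background on at least 3 of 7 arrays and measured on at least 2 arrays a group were tested with limma 3.58.1 in R 4.3.3, two-sided, with Benjamini-Hochberg adjustment over all of them. A probe printed more than once counted as well above background where a share of at least 0.5 of its spots were. A version in which any spot sufficed was run after the tested count was seen to differ from an earlier description by a few probes, and gave 33378 in place of 33359. The first rule was kept. The probe of highest mean intensity stood for a gene. Named genes were all members, 3 genes a list with the smallest unadjusted p, a fixed set, and the genes nearest in pattern to the 2 members of largest SD. Some genes that this rule names are not reported here. Medians over the 8 arrays are those of the deposited value table. Members and lists were chosen with earlier results of these data known. The labels call the samples independent without saying that each is a separate mouse, so p-values measure the spread between these samples, which may be technical, and 7 arrays limit the precision. The fit was tested on simulated data. Summaries used Python 3.11.15, pandas 2.3.3 and numpy 2.4.6, and figures matplotlib 3.10.9.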

Additional observations from a re-analysis of the deposited data

Results flagged for a closer look

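Single arrays lay far from the other 3 of their group in 7 of 92 groups of 4 arrays (member probes and named genes, TAC from the scanner values and Sham from the 8-array table), where chance gives about 1 in 20. Each value is the gap to the nearest array divided by the range of the group. TAC replicate 1 was low for Ppard (0.885, 1.68 against 1.86 to 1.89), Nr1h2 (0.887, 4.65 against 4.92 to 4.96), Cebpg (0.885, 1.5 against 1.64 to 1.65), Adipor2 (0.889, 7.32 against 7.78 to 7.84) and Rxra (0.839, -1.04 against -0.56 to -0.47). Sham replicate 2 was low for Angptl4 (0.845, 7.49 against 7.89 to 7.96), and Sham replicate 3 was high for Cidea (0.83, 10.86 against 10.56 to 10.61).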

How the results depend on the processing

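No member probe came under an adjusted p of 0.05 in any of the alternatives that tested it (lowest limma adjusted p 0.246). Zfp516 was not tested where a probe had to be well above background on every array. Means over several probes have no p. In all, 283 of 287 member values had the sign of the value reported. These include alternatives that changed only the filter, the variance model or the test. Their fold changes are those of the main fit, so their signs could not turn. The sign turned for Cebpa, 0.0322 with quantile normalization and 0.0432 without Sham replicate 2, for the Ppara probe A_55_P2071601, -0.0137 without Sham replicate 2, and for Ppard, 0.00255 in the value table without TAC replicate 1. The cause was not tested. Array weights, the value table without TAC replicate 1 and the any-spot filter (33378 probes tested, 0 called) were chosen after seeing the data.

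Over all probes, 1 was called lower after normexp. A different probe was the only one called lower after median centring, on the 7-array value table and with array weights. Leaving out 1 array gave 0 to 6 called higher and 0 to 1 lower, the most without TAC replicate 4. Unadjusted p under 0.05 then held for 891 to 1562 probes higher and 1601 to 2993 lower, the fewest without Sham replicate 3. Member probes without overlap in the lower direction numbered 0 in the value table of 8 arrays and in that table without TAC replicate 1. They also numbered 0 with quantile normalization and after normexp, and 2 with median centring. Dropping any single array put 1 to 3 member probes above Sham and 1 to 4 below it without overlap. The largest counts, 3 and 4, came without Sham replicate 2. The matching shares over all probes were not computed for runs with a dropped array. Leaving out 1 array, log2 fold changes ran from -0.112 to 0.0432 for Cebpa, -0.191 to -0.0622 for Ppard, -0.255 to -0.0647 for Ppara, -0.267 to -0.0013 for its probe A_55_P2071596, -0.0137 to 0.227 for its probe A_55_P2071601, 0.0548 to 0.19 for Pparg, -0.54 to -0.226 for Cebpb, -0.353 to -0.046 for Prdm16, -0.332 to -0.1 for Ebf2, -0.284 to -0.152 for Esrra, -1.02 to -0.641 for Zfp516 and 0.203 to 0.295 for Esrrg.

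With the replicate number as a replicate block, 0 probes were called on 7 or 8 arrays, and Esrrg was at 0.277 and 0.244. By design these fold changes equal those without TAC replicate 1 and those of the 8 arrays without a block. The block thus gave no separate estimate of a fold change. Deviations of same-numbered arrays correlated at 0.002, -0.025 and -0.021 on 7 arrays and at 0.269, 0.02, 0.057 and 0.019 on 8 arrays, and since not every pair was over 0.1 the numbers were not taken to pair the samples. The methods' t-test, at their unadjusted threshold of 0.05, called 1602 probes higher and 2586 lower, and 0 after Benjamini-Hochberg adjustment. Of 184 list medians, 4 moved by more than the larger SD of the list's median between arrays of a group, all of the nuclear receptor partners. Quantile normalization also brought the medians of ERR targets from -0.174 to -0.0589, of PPAR targets from -0.145 to -0.0311 and of brown-selective genes from -0.113 to -0.00695. Over all alternatives the medians ran from -0.223 to -0.0589 for ERR targets, -0.181 to -0.0099 for PPAR targets, -0.206 to -0.00695 for brown-selective genes, -0.155 to 0.00676 for partners, 0.0319 to 0.117 for coactivators and corepressors, -0.16 to -0.0747 for other factors, -0.0918 to 0.188 for white-selective genes and -0.21 to -0.126 for the members. A slide or scan block was not run, with 1 slide and 1 scan. Signal over background limits Zfp516.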

Other observations

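The remaining cell type lists had these median log2 fold changes of TAC minus Sham: -0.22 for 6 Schwann cell markers, -0.06 for 5 erythroid markers, 0.02 for 10 endothelial markers, 0.05 for 11 preadipocyte and fibroblast markers, 0.11 for 10 lymphocyte markers, 0.15 for 16 macrophage markers and 0.95 for 18 skeletal muscle markers. Without TAC replicate 1 they were -0.12, -0.14, 0.02, -0.04, -0.03, -0.3 and 0.73 in the same order, and on the 8 arrays -0.33, 0.13, 0.04, 0.03, -0.02, 0.09 and 0.69, so that the sign turned for the erythroid, preadipocyte and fibroblast, lymphocyte and macrophage lists in one or both. None of these markers passed the test. The brightest probes were those of the globin gene Hba-a2 among erythroid, Egfl7 among endothelial and Dcn among preadipocyte and fibroblast markers. They were those of Cd4 among lymphocyte, Itgam among macrophage and Myh4 among skeletal muscle markers. The summed lymphocyte markers were 12.9 to 13.3 in Sham replicates 2 to 4. In TAC replicates 1 to 4 they were 23.4, 13.6, 13.3 and 12.8. Their mean log2 difference from Sham replicates 2 to 4 was 0.5 on Sham replicate 1 in the deposited table. It was -0.01, 0.34 and -0.32 on Sham replicates 2 to 4 and 1.01 on TAC replicate 1.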
